A study of Mus musculus with 12 samples.

Results

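The genes described here are 200 small nucleolar RNA (snoRNA) and small Cajal body RNA (scaRNA) genes measured in U2OS cells, a human osteosarcoma line. The gene table marks 992 of its 58735 genes as snoRNA (943) or scaRNA (49). From them, 200 were chosen by the highest mean FPKM (fragments scaled to gene length and a size factor per library) over all 12 libraries. Of these, 187 were snoRNA and 13 scaRNA genes. Since these values chose the members, the level of a member is given as a description. RNA-seq libraries came from 4 groups with 3 replicates each: blank U2OS cells, cells given the siRNA siSRSF1-2, cells given the siRNA siSRSF1-3, and cells in which LINC01134, a long non-coding RNA, was overexpressed (OE-LINC01134). Both siRNAs target the splicing factor SRSF1. No library of a control siRNA or of an empty vector was among the samples, so transfection and target effects cannot be told apart. The labels do not say whether replicates were separate cultures, and p-values measure only the spread between these libraries.

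snoRNAs guide the chemical modification of ribosomal and spliceosomal RNA. Box C/D snoRNAs direct methylation of the ribose and box H/ACA snoRNAs direct the change of uridine to pseudouridine, while scaRNAs do the same for spliceosomal RNAs in Cajal bodies, and a few snoRNAs, such as U3 and U17, take part in cleaving the ribosomal RNA precursor. Most human snoRNAs lie in introns of a host gene and are trimmed from the spliced-out intron, so splicing of the host precedes their release. U3 is an exception, made from genes of its own.

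By name, 62 members were box C/D (SNORD) genes, 59 were box H/ACA (SNORA) genes and 9 were Cajal body (SCARNA) genes, and the other 70 are listed by Ensembl identifier. Their lengths ran from 66 to 791 bases with a median of 130. By the coordinates in the table, 164 members lay inside another gene on the same strand, in 134 distinct host genes. The hosts were ribosomal protein genes for 12 members, other protein-coding genes for 113 and non-coding genes for 39. A further 25 members lay only inside a gene of the opposite strand and 11 inside no other gene. Reads from the member, from unspliced host RNA and from an overlapping transcript cannot be told apart in gene-level values. The labels name a mouse genome build, although all gene identifiers are human, so the build behind the coordinates below is not settled.

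These genes were thinly covered. The study's methods describe poly(A) selection and a choice of cDNA fragments by length, and mature snoRNAs lack the tail. The values below therefore cannot be taken as levels of the mature RNAs. The number of reads was recovered from FPKM, and the mean over the 12 libraries ran from 0.5 to 129 reads per member, with a median of 3.08. There were 98 members under 3 mean reads and 44 with at least 10, and the 44 held 73.2% of all member reads. Mean FPKM ran from 72.3 to 0.233, with a median of 0.902. The last members inside the limit of 200 were ENSG00000207119 (0.234 FPKM), ENSG00000201863 (0.233) and ENSG00000251730 (0.233), and the first outside were SNORD116-12 (0.229), ENSG00000202479 (0.225) and SNORA2C (0.221). The members took 96.1% of all snoRNA and scaRNA reads, and 578 of the 992 genes had 0 reads in every library. Only 144 members reached the mean FPKM of 0.5 needed for the test, and the other 56 are counted only in the totals and per-library counts. A library with 0 reads on a gene may, by counting error alone, come from a level of up to 3 reads.

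Libraries of the same group were not equally alike. A chi-square statistic per gene, near 1 for counting noise alone, was 2.18 to 3.39 within siSRSF1-2, between blank replicates 2 and 3 and between OE-LINC01134 replicates 1 and 3, and 71.7 to 76.3 for blank replicate 1 or OE-LINC01134 replicate 2 against their own group. In siSRSF1-3 it was 98.3 to 350. Summed FPKM of ribosomal protein genes was 87390 in siSRSF1-3 replicate 1, 50598 in replicate 2 and 18622 to 24610 in the other libraries. SRSF1, the siRNA target, had an FPKM of 35.9, 19.8 and 20.5 in the blank libraries, 7.09, 7.46 and 7.41 with siSRSF1-2, 3.33, 6.81 and 7.90 with siSRSF1-3, and 31.8, 29.6 and 30.3 in OE-LINC01134. LINC01134 was at 878 to 1279 FPKM in OE-LINC01134 libraries and 0.497 to 1.11 elsewhere.

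Members with 0 reads were most numerous with siSRSF1-3, although a 0 does not show that a gene was not expressed. Members with 0 reads numbered 26, 31 and 30 of 200 in the blank libraries, 35, 30 and 27 with siSRSF1-2, and 25, 39 and 28 in OE-LINC01134. With siSRSF1-3 they numbered 113, 100 and 44. The siSRSF1-3 group did not overlap with any other (exact two-sided permutation test against blank, p = 0.1, the smallest that 3 against 3 allow, and 0.56 after Benjamini-Hochberg adjustment over 56 tests of library totals). The members with a read in all 3 libraries of a group numbered 142 in blank cells, 132 with siSRSF1-2, 130 in OE-LINC01134 and 52 with siSRSF1-3. Genes of every kind with a read were also fewest in siSRSF1-3 replicates 1 and 2. Over all 58735 genes they numbered 27922, 27813 and 30877 with siSRSF1-3 and 30783 to 32629 in blank cells. The range was 31074 to 32135 with siSRSF1-2 and 30157 to 30315 in OE-LINC01134. Whether members differed in this from other genes of like depth was not tested.

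The total over the members overlapped between groups, while its makeup differed in siSRSF1-3 replicates 1 and 2. The members had 2014, 1375 and 1554 reads in blank libraries, 1703, 1736 and 2111 with siSRSF1-2, 1784, 1646 and 1770 in OE-LINC01134, and 2108, 1300 and 1581 with siSRSF1-3. Their summed FPKM was 462 ± 123 (SD, n = 3), 497 ± 13.1, 509 ± 8.03 and 534 ± 143 in the same order of groups, and no group lay wholly above or below the blank group. A lower level in every cell and fewer cells with the RNA cannot be told apart in bulk libraries. Reads on members in other protein-coding hosts were 122, 248 and 568 with siSRSF1-3 and 548 to 804 in the 9 other libraries. Reads on the 11 members outside any gene were 1082, 133 and 86 with siSRSF1-3 and 69 to 103 elsewhere. Of these 11, SNORD3B-2 and SNORD3C were kept as members only through the siSRSF1-3 libraries. The height of this class total in siSRSF1-3 replicate 1 is therefore not read. Member reads per 1000 reads of the same-strand hosts were 0.796, 1.0 and 1.49 with siSRSF1-3, 1.91, 1.94 and 1.98 with siSRSF1-2 and 2.17, 1.52 and 1.46 in blank libraries. The ratio overlapped with blank cells and did not overlap with siSRSF1-2 (exact two-sided permutation test, p = 0.2 and 0.1). Adjusted over the 56 tests of library totals, these permutation p-values were 0.8 and 0.56. Reads of the hosts were 1213054, 1090765 and 901382 with siSRSF1-3, 750880 to 923231 with siSRSF1-2 and 754085 to 888177 in blank cells. Their part in the ratio was not tested.

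**Figure D1:**
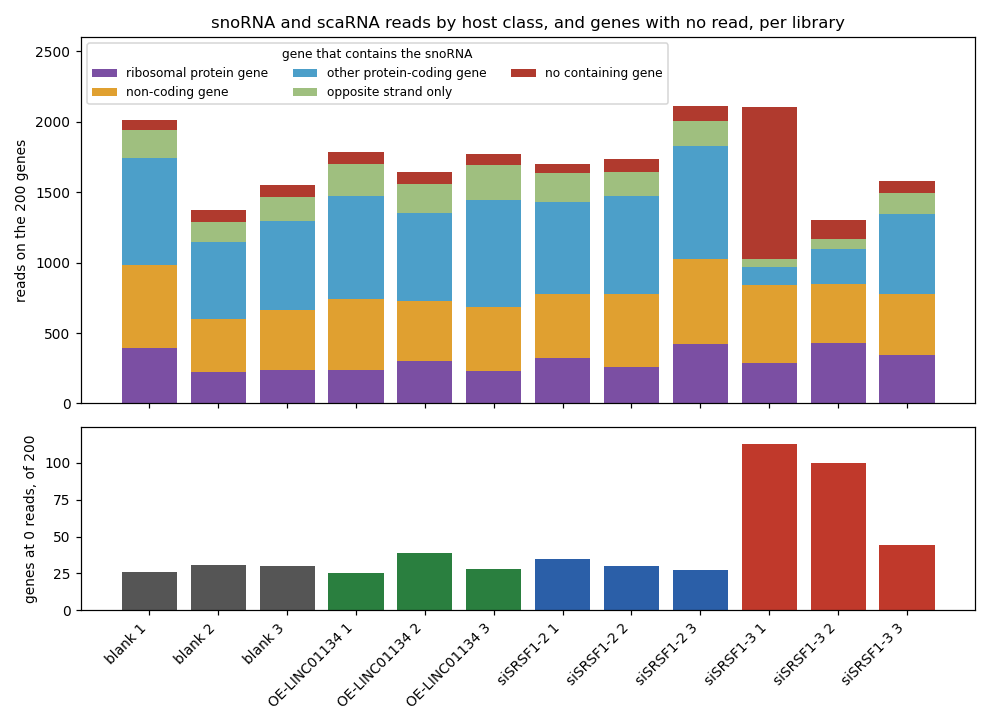
Reads on the 200 snoRNA and scaRNA genes in each of the 12 libraries, stacked by the kind of gene that contains them (top, number of reads), and the number of the 200 genes with no read (bottom, bars from 0). The part from other protein-coding hosts is smaller in siSRSF1-3 replicates 1 and 2 (122 and 248 reads) than in any other library. In those replicates 113 and 100 genes are at 0.

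The 5 members with a mean of at least 50 reads, all snoRNAs, held the best measured values. SNORD17 (ENSG00000212232), a box C/D snoRNA of 237 bases on chromosome 20 from 17962710 to 17962946 inside SNX5, a sorting nexin gene, had 202, 124 and 152 reads in the blank libraries and 161, 157 and 156 in OE-LINC01134. It had 83, 103 and 95 reads with siSRSF1-2 and 0, 6 and 41 with siSRSF1-3. Both siRNA groups lay wholly below the blank libraries, and the OE-LINC01134 libraries lay among them. SNORD17 had an FPKM of 22.9 ± 6.82 (SD, n = 3) in blank cells, 12.7 ± 1.77 with siSRSF1-2 and 2.18 ± 2.96 with siSRSF1-3. The log2 fold change was -0.81 with siSRSF1-2 (standard error, SE, 0.21, limma adjusted p = 0.0378), short of the fold threshold, and -4.72 with siSRSF1-3 (SE 1.30, limma adjusted p = 0.0947). The latter was -3.17 without siSRSF1-3 replicate 1. Without replicate 3 it was -6.08 with a limma adjusted p of 0.0129, and with a pseudocount of 1 FPKM in place of 0.1 it was -3.31 with an adjusted p of 0.0499. The host SNX5 was at 15.6, 16.1 and 12.1 FPKM with siSRSF1-3 and 22.4, 14.9 and 15.6 in blank cells.

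SNORA73B, also called U17b and needed for processing of the ribosomal RNA precursor, lies in SNHG3, a non-coding snoRNA host, on chromosome 1 from 28508559 to 28508762. It had 163, 103 and 133 reads in blank cells, 131, 166 and 194 with siSRSF1-2, 87, 113 and 64 in OE-LINC01134, and 6, 66 and 98 with siSRSF1-3. All siSRSF1-3 libraries lay below all blank libraries, and the siSRSF1-2 libraries overlapped with them. The log2 fold change with siSRSF1-3 was -1.68 (SE 0.83, limma adjusted p = 0.214), and -0.63 without siSRSF1-3 replicate 1. SNHG3 itself was at 96.0, 67.3 and 45.9 FPKM with siSRSF1-3 and 34.7 to 45.1 in blank cells, so host and snoRNA lay on opposite sides of the blank libraries.

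SNORD104, a box C/D snoRNA in SNHG25 on chromosome 17 from 64146083 to 64146152, had the highest mean FPKM of all members. Its reads numbered 104, 71 and 79 in blank cells, 101, 74 and 125 with siSRSF1-2, 81, 79 and 66 in OE-LINC01134, and 442, 218 and 106 with siSRSF1-3. Replicate 3 of siSRSF1-3 lay just above the blank libraries in reads and among them in FPKM, and replicate 1 had the highest count of any member. The log2 fold change was 1.62 (SE 0.64, limma adjusted p = 0.157). It was 0.93 without siSRSF1-3 replicate 1 and 2.29 without replicate 3 (limma adjusted p = 0.0173). SNHG25 was at 37.1, 13.0 and 5.08 FPKM with siSRSF1-3 and 4.62 to 5.59 in blank cells. With siSRSF1-2, SNHG25 fell by 1.04 on the log2 scale (limma adjusted p = 0.0301), while the log2 fold change of SNORD104 was 0.15 (limma adjusted p = 0.638). Whether host and snoRNA differed in that comparison was not tested.

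SNORA33, a box H/ACA snoRNA in the ribosomal protein gene RPS12, had 73, 54 and 43 reads in blank cells, 64, 61 and 93 with siSRSF1-2, 39, 78 and 57 in OE-LINC01134, and 175, 190 and 85 with siSRSF1-3. The siSRSF1-3 libraries lay above all blank libraries (log2 fold change 1.59, SE 0.48, limma adjusted p = 0.107). Without siSRSF1-3 replicate 3 the log2 fold change was 2.12 (limma adjusted p = 0.0118). SNORD83A, a box C/D snoRNA in RPL3, had 59, 37 and 52 reads in blank cells, 76, 57 and 113 with siSRSF1-2, 48, 49 and 41 in OE-LINC01134, and 8, 46 and 91 with siSRSF1-3. Its siSRSF1-3 libraries lay on both sides of the blank libraries, and without replicate 1 the log2 fold change went from -0.34 to 0.48. RPL3 was at 1368, 915 and 498 FPKM with siSRSF1-3 against 353 to 441 in blank cells.

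**Figure D2:**
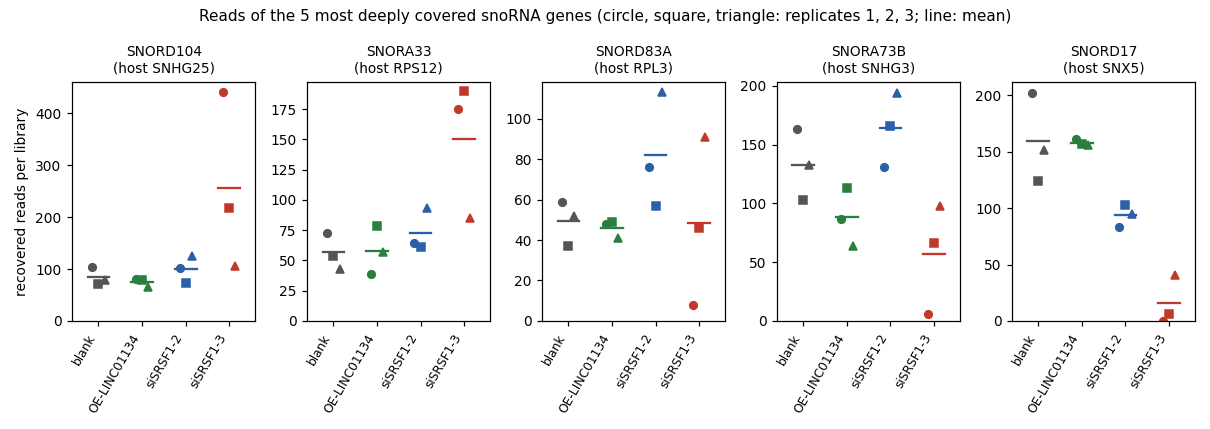
Recovered reads per library (linear axes from 0, a separate scale for each panel) of the 5 snoRNA genes with a mean of at least 50 reads, by group. Symbols are replicates and lines are group means. SNORD17 is at 124 to 202 reads in blank libraries and at 0, 6 and 41 with siSRSF1-3, whereas SNORD104 and SNORA33 reach 442 and 190 reads there.

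Members of the same host could lie on different sides of the blank libraries. RPS12 holds 3 members, and beside SNORA33 these were SNORD100, with 10, 40 and 36 reads with siSRSF1-3 and 16 to 44 in blank cells, and SNORD101, with 0, 8 and 29 reads against 17 to 42. SNORD101 thus had its lowest counts in the 2 libraries in which SNORA33 had its highest, although both are in RPS12, whose FPKM was 6901, 3865 and 1651 with siSRSF1-3 and 1269 to 1344 in blank cells. Neither passed the threshold (SNORD101 log2 fold change -2.95, SE 1.66, limma adjusted p = 0.262).

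SNHG17 holds the H/ACA snoRNAs SNORA71A, SNORA71B, SNORA71C and SNORA71D, near-identical copies whose reads may be shared. With siSRSF1-3 their reads were 5, 0 and 19 for SNORA71A, 0, 3 and 31 for SNORA71B, 5, 9 and 26 for SNORA71C and 0, 0 and 3 for SNORA71D. In blank cells they were 15, 8 and 9, then 31, 25 and 19, then 45, 22 and 38, and 3, 4 and 0. In each of the 4 genes replicate 3 had the most reads of the siSRSF1-3 libraries. The log2 fold changes were -1.22 to -2.43 with none past the threshold, and that of SNORA71C (-1.39, limma adjusted p = 0.123) passed without siSRSF1-3 replicate 3 (-1.87, adjusted p = 0.0154). SNHG17 was at 50.4, 34.3 and 21.2 FPKM against 8.57 to 14.1 in blank cells (log2 fold change 1.49, limma adjusted p = 0.0772).

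GNL3, which encodes nucleostemin, holds SNORD19, SNORD69 and ENSG00000222345. With siSRSF1-3 these had 0, 4 and 23 reads, then 0, 5 and 6, then 0, 4 and 21. In blank cells they had 10, 3 and 6, then 19, 9 and 19, then 12, 12 and 14. All 3 were at 0 in siSRSF1-3 replicate 1, while GNL3 was at 33.2, 37.0 and 37.5 FPKM there against 28.9 to 39.0 in blank cells. NOP58, itself a protein of box C/D particles, and WDR43, a factor of small-subunit assembly, each hold 3 members with few reads in every group. SNORD11 in NOP58 had a mean of 4 reads with siSRSF1-3 and 0.667 in blank cells, and SNORD53B in WDR43 had 2.33 in both.

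SNHG14 holds 8 copies of SNORD116, the imprinted box C/D cluster on chromosome 15 that is lost in Prader-Willi syndrome. Their mean counts were low, at 0.750 to 3.25 reads. SNORD116-24 had 2, 3 and 4 reads in blank cells, 4, 4 and 5 with siSRSF1-2, 1, 6 and 1 in OE-LINC01134 and 0, 0 and 0 with siSRSF1-3. It was the only member past the threshold with siSRSF1-3 (limma adjusted p = 0.0453 against blank and 0.0375 against siSRSF1-2). A total of 9 reads against 0 does not allow a firm fold change, and the call against blank was absent without genes under a mean of 10 reads, with a pseudocount of 0.01, with voom and without any single library other than siSRSF1-3 replicate 3. SNHG14 was at 0.411, 0.445 and 0.834 FPKM with siSRSF1-3 and 1.54 to 1.70 in blank cells.

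Several members outside any host gene had their most reads in siSRSF1-3 replicate 1, and 822 of the 1082 reads of that kind there were on U3 genes. Of these, SNORD3B-2 and SNORD3C would lie under the limit of 200, and SNORD3B-1 and SNORD3B-2 under the filter of the test, without the siSRSF1-3 libraries, and nothing is read from their high values there. The 4 genes of U3, SNORD3A, SNORD3B-1, SNORD3B-2 and SNORD3C on chromosome 17, are near-identical and their reads may be shared. Together they had 23, 25 and 22 reads in blank cells, 24, 22 and 18 with siSRSF1-2, 26, 38 and 23 in OE-LINC01134, and 822, 56 and 31 with siSRSF1-3. This total takes in the members kept through siSRSF1-3, so its height in replicate 1 is not read either. Replicate 3 lay within the range of the OE-LINC01134 libraries. SNORD3A alone had 313, 36 and 21 reads with siSRSF1-3 and 16, 20 and 13 in blank cells (log2 fold change 2.08, SE 1.05, limma adjusted p = 0.222). ENSG00000200693, a snoRNA gene on chromosome 14 from 63651296 to 63651499 that was chosen after its values were seen, had 223, 50 and 26 reads with siSRSF1-3 and 15, 27 and 18 in blank cells (log2 fold change 1.99, limma adjusted p = 0.182). Not all members outside a gene were high there, since ENSG00000221044 had 0, 1 and 12 reads with siSRSF1-3 and 6, 13 and 12 in blank cells.

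**Figure D3:**
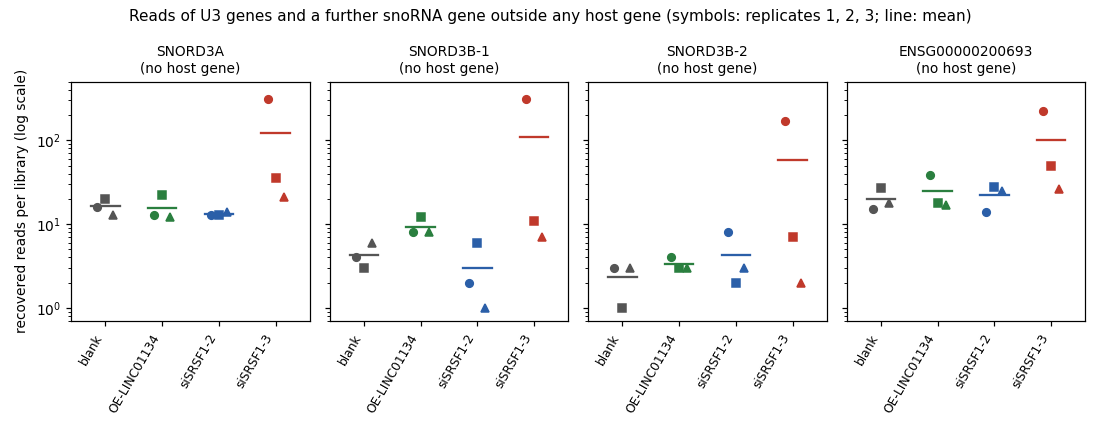
Recovered reads per library (log scale) of 3 U3 genes and of ENSG00000200693, none of which lies inside another gene. Symbols are replicates and lines are group means. In siSRSF1-3 replicate 1 they reach 313, 308, 168 and 223 reads, and replicate 3 of that group sits near the other groups. SNORD3B-1 and SNORD3B-2 passed the filter of the test only through siSRSF1-3, so nothing is read from their height there.

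Each group was then compared with blank cells across all genes with limma on log2(FPKM + 0.1), and the threshold for a call was an adjusted p under 0.05 (Benjamini-Hochberg) together with a log2 fold change above 1 or below -1. On short genes 1 read is worth more than the pseudocount, at 0.282 to 0.510 FPKM for a gene of 100 bases, so fold changes of members with few reads move in large steps. For siSRSF1-3, 0 tested members rose and 1 fell, SNORD116-24, where 0.331% of all genes tested rose and 0.929% fell (0% and 0.607% of genes under 10 mean reads). With an unadjusted p in place of the adjusted one, 6 members were higher and 24 lower (7.57% and 7.24% of all genes). The voom method of limma on the recovered reads gave 0 and 0 (1% and 2.34% of all genes). The median log2 fold change over the 144 members tested was -1.22, and -1.17 with the 7 that had 0 reads in a whole group set at the floor of 3 reads over the group. Over all genes tested the median was -0.01, and over genes under 10 mean reads it was -0.41. Libraries did not overlap with blank cells for 6 members above and 21 below, against 19.2% and 18% of all genes. Single libraries decided these counts: 6 members were higher and 42 lower past the threshold without siSRSF1-3 replicate 3 (12.5% and 11.4% of all genes in the same fit), and 0 and 0 without any other library of the comparison. Leaving out siSRSF1-3 replicate 1 gave a median of -0.72, and leaving out replicate 3 gave -1.88. Scaling each library to its own read total or to the same FPKM sum moved the median of all genes to -0.26 or -0.43, and that of the members to -1.28 or -1.34.

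The members were also described by kind of host, with no test of a difference between kinds. The median log2 fold change was -1.33 for the 76 tested members in other protein-coding hosts, -1.09 for 30 in non-coding hosts, -1.86 for 18 on the opposite strand of a gene, -0.11 for 12 in ribosomal protein genes and 1.43 for 8 outside any gene, of which 2 passed the filter only through siSRSF1-3. Without siSRSF1-3 replicate 1 these were -0.75, -0.73, -1.01, 0.13 and 0.52. Ribosomal protein genes were themselves higher in siSRSF1-3 replicates 1 and 2 (summed FPKM above), and the part of that in the values of their snoRNAs was not tested. By name class the medians were -1.33 for box C/D and -0.99 for box H/ACA members. Among members with at least 10 mean reads, 13 of 14 in other protein-coding hosts had a negative log2 fold change, with a median of -1.52. Of the 3 higher and 3 lower members with the smallest adjusted p and enough reads, SNORA31 in TPT1 (4, 4 and 2 reads in blank cells, 4, 24 and 9 with siSRSF1-3) and SNORA3B in RPL27A (14, 6 and 13, then 31, 27 and 15) had log2 fold changes of 1.71 and 1.38. Neither passed the threshold. SNORA79B in CCNB1IP1 had 39, 22 and 28 reads in blank cells and 12, 10 and 18 with siSRSF1-3, with no overlap (log2 fold change -0.90, limma adjusted p = 0.117).

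Hosts and members could be set side by side for 34 members with at least 10 mean reads and a tested same-strand host. With siSRSF1-3 the median log2 fold change was -0.78 for the members and 0.87 for their hosts, and 28 of 34 members lay below their host. The same count was 14 of 34 with siSRSF1-2 and 17 of 34 in OE-LINC01134. Across these genes, which share libraries and in some cases a host, Pearson's r between member and host was 0.33 with siSRSF1-3, -0.29 with siSRSF1-2 and 0.53 in OE-LINC01134, and genes are not independent replicates. The 129 tested hosts had a median of 0.00 with siSRSF1-3, with 0 higher and 1 lower past the threshold (ATP2B4, host of SNORA77, -2.43, limma adjusted p = 0.0426).

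**Figure D4:**
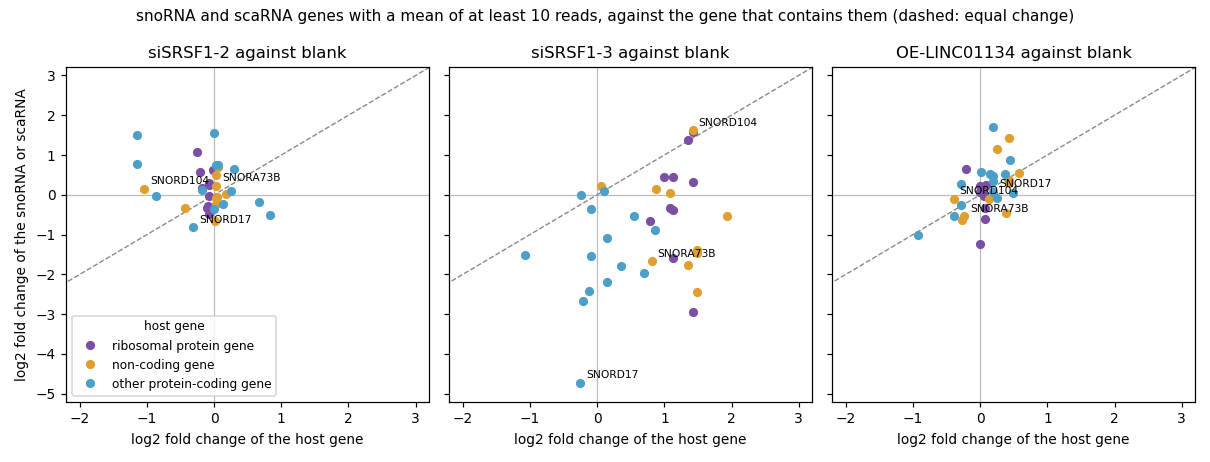
Log2 fold change of 34 snoRNA and scaRNA genes with at least 10 mean reads (y axis) against that of the gene that contains them (x axis) in 3 comparisons, coloured by kind of host. Points below the dashed line have a lower log2 fold change than their host, 28 of 34 with siSRSF1-3.

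With siSRSF1-2, 9 tested members rose and 4 fell, where 2.22% of all genes tested rose and 2.73% fell. With an unadjusted p 15 were higher and 6 lower (3.06% and 3.43% of all genes), and voom called 6 and 2 (2.59% and 3.01%). All 13 had under 10 mean reads over the 12 libraries, a depth at which 5.29% of all genes rose and 1.99% fell. Only 2 of the 9 had at least 10 mean reads in the siSRSF1-2 group, and 2 of the 9 reached the filter only through that group. SNORA80B, an H/ACA snoRNA in ODC1, the rate-limiting enzyme of polyamine synthesis, had 5, 3 and 6 reads in blank cells and 12, 12 and 20 with siSRSF1-2. Its FPKM went from 1.15 ± 0.325 to 3.40 ± 0.646 (SD, n = 3), with log2 fold change 1.51 (SE 0.24, limma adjusted p = 0.00843). ENSG00000252473, in the kinase gene MAP4K3, had 3, 3 and 5 reads in blank cells and 17, 12 and 10 with siSRSF1-2 (log2 fold change 1.65, SE 0.29, limma adjusted p = 0.0107). Neither group overlapped with blank libraries, and both calls held without any single library. ODC1 had a log2 fold change of -0.02 and MAP4K3 of 0.37 in the same comparison. A single fit over all 4 groups, which takes in the spread of siSRSF1-3, gave limma adjusted p = 0.116 and 0.319 for these members.

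The other 11 are given as mean reads over 3 libraries. SNORD11 in NOP58 had 7 with siSRSF1-2 against 0.667 in blank cells, and SNORD13E had 8.33 against 1. SNORA80E had 9.33 against 3, SNORA19 2.67 against 0.333 and ENSG00000251775 6.67 against 2. ENSG00000207171 had 7.67 against 1 and ENSG00000252050 5.33 against 0.333. These last 2 reached the filter of the test only through siSRSF1-2, so nothing is read from their rise. Those that fell were SNORA77 (2 against 9), SNORD93 (0.667 against 4.33), SNORD67 (2 against 5.33) and ENSG00000251940 (0.333 against 3.67). SNORA77 lies in ATP2B4, a plasma membrane calcium pump gene, which fell by 1.22 on the log2 scale (limma adjusted p = 0.00485).

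Members with more reads were set beside all genes of like depth with siSRSF1-2. Among the 44 with at least 10 mean reads, 0 passed the threshold in either direction with limma. Under an unadjusted p 3 were higher and 0 lower. Of 4439 tested genes with 10 to 150 mean reads, 171 rose and 182 fell, and 236 and 252 did under an unadjusted p. The median log2 fold change was 0.04 for the 44 members and -0.006 for those genes. SNORA11F, on the opposite strand of NUDT13, had 76, 56 and 80 reads in blank cells and 51, 44 and 43 with siSRSF1-2 (log2 fold change -0.68, limma adjusted p = 0.0372), short of the fold threshold. SNORD19 in GNL3 had 10, 3 and 6 reads and then 22, 20 and 13 (log2 fold change 1.55), and passed only when blank replicate 1 was left out or another scaling was used. SCARNA13, the scaRNA with the most reads, in SNHG10, had 24, 21 and 27 reads in blank cells and 20, 17 and 23 with siSRSF1-2. NCL, which encodes nucleolin and holds SNORD20 and SNORA75, fell by 1.14 on the log2 scale (limma adjusted p = 0.00848), while SNORD20 had 15, 7 and 7 reads and then 11, 18 and 22, and SNORA75 10, 2 and 10 and then 19, 14 and 24. Over all 144 tested members the median was 0.16, against 0.02 for all genes and 0.26 for genes under 10 mean reads, and 14 members lay wholly above and 9 wholly below blank libraries (25.3% and 24.2% of all genes). Without blank replicate 1, 24 members rose and 4 fell (3.03% and 3.74% of all genes in that fit). Without siSRSF1-2 replicate 2 or 3, 2 rose (1.27% and 1.15% of all genes).

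**Figure D5:**
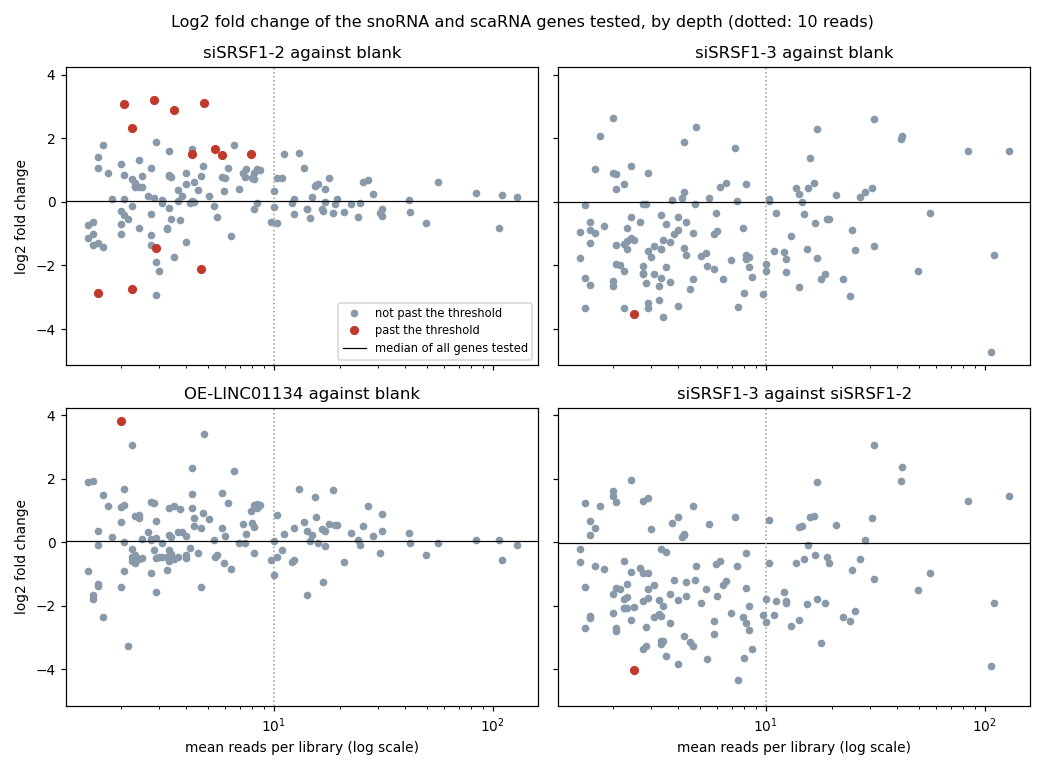
Log2 fold change of the 144 tested snoRNA and scaRNA genes (y axis) against mean reads per library (x axis, log scale) in 4 comparisons, with genes past the threshold in red and the median of all 17538 genes as a line. Every red point lies left of the dotted line at 10 reads, and the points with siSRSF1-3 lie mostly below the line.

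In OE-LINC01134, 1 tested member rose and 0 fell, where 0.257% of all genes rose and 0.593% fell (0.52% and 0.52% of genes under 10 mean reads). The gene that rose was ENSG00000239005, with 0 reads in each blank library and 7, 2 and 7 in OE-LINC01134. It reached the filter of 0.5 mean FPKM only through that group, as its mean over the other 9 libraries was 0.296. With an unadjusted p 13 members were higher and 8 lower (2.45% and 5% of all genes). Voom gave 0 and 0 (0.576% and 1.41%). SNORA71A had 15, 8 and 9 reads in blank cells and 30, 25 and 27 in OE-LINC01134, with no overlap and log2 fold change 1.44 (SE 0.26, limma adjusted p = 0.0570). The same test gave 0.00555 without blank replicate 1, 0.0306 without OE-LINC01134 replicate 2 and 0.223 to 0.239 without any other library. SNORD19 had 18, 13 and 25 reads in OE-LINC01134 (log2 fold change 1.70, limma adjusted p = 0.0885). ENSG00000252448, on the opposite strand of INPP5B, had 56, 21 and 54 reads in OE-LINC01134 and 15, 21 and 7 in blank cells.

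Lower members in OE-LINC01134 with enough reads were few. The scaRNA gene ENSG00000252274 had 10, 18 and 14 reads in blank cells and 7, 5 and 7 in OE-LINC01134 (log2 fold change -1.02, limma adjusted p = 0.0788). ENSG00000206878, outside any gene, had 17, 9 and 26 and then 4, 3 and 8 (log2 fold change -1.65, limma adjusted p = 0.0890). SNORA66 in RPL5 had 37, 20 and 14 and then 5, 13 and 10 (log2 fold change -1.23, limma adjusted p = 0.177). In the first 2 of these all OE-LINC01134 libraries lay below all blank libraries, and in SNORA66 the FPKM of the groups overlapped. The median over the tested members was 0.16 against 0.05 for all genes, and 17 members lay wholly above and 7 wholly below blank libraries (16.8% and 13.8% of all genes). Without blank replicate 1, 9 members rose and 1 fell (1.81% and 3.68% of all genes in that fit), and without OE-LINC01134 replicate 2, 6 rose and 4 fell (2.91% and 5.87%).

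The 2 siRNAs were also set against each other. With siSRSF1-3 against siSRSF1-2, 0 members were higher and 1, SNORD116-24, was lower past the threshold (0.0342% and 0.0513% of all genes, and 0% and 0.607% of those under 10 mean reads). With an unadjusted p 2 were higher and 27 lower (9.01% and 7.42% of all genes), and voom called 0 and 0 (0.319% and 0.308%). Without siSRSF1-3 replicate 3, 9 were higher and 48 lower (16% and 14.5% of all genes in that fit). The median log2 difference was -1.46, against -0.02 for all genes and -0.80 for genes under 10 mean reads, and 6 members lay wholly above and 33 wholly below (27% and 27.6% of all genes). SNORA80B had 1, 1 and 7 reads with siSRSF1-3 and 12, 12 and 20 with siSRSF1-2 (log2 difference -2.33, limma adjusted p = 0.0794). ENSG00000212533, on the opposite strand of DDX11, had 0, 0 and 5 and 17, 13 and 9 (log2 difference -3.63, limma adjusted p = 0.0820). SCARNA13 was the reverse, with 19, 25 and 28 reads and 20, 17 and 23, which is 3.46 ± 0.167 and 2.33 ± 0.221 FPKM (SD, n = 3, limma adjusted p = 0.0786). With each library scaled to the same FPKM sum this difference was -0.0037 on the log2 scale.

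The genes that build and carry snoRNA particles were measured beside their RNAs, from lists chosen with earlier results known. The 8 core proteins (FBL, NOP56, NOP58 and SNU13 of box C/D particles, DKC1, NHP2, NOP10 and GAR1 of H/ACA particles) had a positive log2 fold change in 8 of 8 with siSRSF1-3, with a median of 0.46 and 0 past the threshold by limma or voom (2 with an unadjusted p). With each library scaled to the same FPKM sum, 4 of 8 were positive and the median was 0.02. FBL, the methyltransferase, was at 307, 204 and 97.7 FPKM with siSRSF1-3 and 88.1 to 112 in blank cells, and NOP10 at 939, 551 and 265 against 199 to 203. DKC1, the pseudouridine synthase, was at 45.4 to 50.3 against 40.5 to 55.7. With siSRSF1-2 the core proteins had a median of -0.15, 7 of 8 were negative and 0 passed, with NOP56 at -0.56 (limma adjusted p = 0.0393). Of 12 maturation and Cajal body genes 3 were positive with siSRSF1-3 (median -0.37), and of 10 assembly factors 8 were positive (median 0.16), with 0 past the threshold in either list by limma or voom and 0 with an unadjusted p. The assembly factors turned negative under the other scalings, with medians of -0.09 and -0.27.

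The 19 listed SNHG genes, non-coding hosts whose exons carry no long reading frame, all had a positive log2 fold change with siSRSF1-3. The median was 1.25, 14 of 19 lay wholly above blank libraries (19.2% of all genes did), 12 were higher with an unadjusted p and 0 passed the threshold by limma or voom. Without siSRSF1-3 replicate 3, 13 passed, where 12.5% of all genes rose, and with the same FPKM sum 14 of 19 were positive, with a median of 0.80. The list had medians of 0.03 with siSRSF1-2 and 0.34 in OE-LINC01134. In all, 18 of these hosts hold 44 snoRNA or scaRNA genes of the table, of which 11 were members and 12 had a read in any library. SNHG1 had a mean of 5900 reads, while the 7 snoRNA genes inside it had 0 reads in every library. SNHG genes left out of the list went either way with siSRSF1-3. SNHG4 was at 6.68, 8.66 and 9.61 FPKM against 11 to 14.4 in blank cells. SNHG26 was at 0.68, 0.689 and 1.05 against 1.75 to 2.32, and SNHG14 also lay wholly below. SNHG11 lay wholly above, at 32.2, 19.5 and 10.9 against 6.14 to 8.1. SNHG18 and SNHG25 were higher in replicates 1 and 2 only.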

How the data were processed

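RNA of U2OS cells was sequenced after poly(A) selection per the study's methods (the labels name a SMARTER kit), and mature snoRNAs lack the tail. The authors deposited FPKM per gene. The labels name GRCm38 although all 58735 gene identifiers are human, and the human build is not given in the sources used here. Reads were recovered from FPKM steps and were whole (within 0.001) for 100% of values. Library totals over genes lay between 2.62378e+07 and 3.29545e+07 reads. FPKM was scaled to a median-of-ratios size factor and not to these totals. The library size that FPKM implied, over the total, was 0.712, 0.888 and 1.06 in siSRSF1-3 and 0.99 to 1.09 elsewhere. FPKM was thus highest for its read total in siSRSF1-3 replicate 1. Intervals of low counts cover counting error only. log2(FPKM + 0.1) was compared between groups of 3 with limma 3.58.1 (R 4.3.3, with trend) on 17538 genes whose mean FPKM reached 0.5, and library totals with exact permutation tests. The fit was tested on simulated data. Hosts were assigned by coordinates.

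Named members had at least 50 mean reads or, per comparison and direction, were up to 5 past the threshold with at least 10 mean reads in the higher group. Where under 3 passed, the 3 with the smallest adjusted p and that many reads were named. Members of hosts with 3 or more members and those at the limit of 200 were named too, and other members were chosen after their values were seen. The members and lists were chosen with earlier results of these data known. Replicate numbers were not used to pair libraries in the main fit. Of 18 correlations of same-numbered libraries 2 exceeded 0.1, which cannot exclude a shared culture or batch, since single libraries stood apart in several groups. Alternatives covered pseudocount, filter, scaling, voom, a pooled fit, a replicate block and leaving out each library.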

Additional observations from a re-analysis of the deposited data

Results flagged for a closer look

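SNORD116-24 passed the threshold between the 2 siRNAs, from 0 reads in each siSRSF1-3 library and 4, 4 and 5 with siSRSF1-2 (limma adjusted p = 0.0375). Its fitted log2 difference of -4.01 depends on the pseudocount and is no bound. The call was absent with a pseudocount of 0.01, a mean FPKM of at least 1, voom or the replicate block, and without any single siSRSF1-2 library or siSRSF1-3 replicate 2.

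For 3 members every library of one siRNA lay above the blank mean and every library of the other lay below it. These were SNORA73B (9.88 FPKM with siSRSF1-3), SCARNA13 (3.46 FPKM) and ENSG00000212533 (0.356 FPKM). In reads SCARNA13 had a mean of 24 both with siSRSF1-3 and in blank cells. Its difference between the siRNAs was -0.0037 on the log2 scale with the same FPKM sum. Between the siRNAs the log2 differences were -1.91 for SNORA73B, 0.55 for SCARNA13 and -3.63 for ENSG00000212533, and none passed (limma adjusted p = 0.141, 0.0786 and 0.0820).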

How the results depend on the processing

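Percentages in brackets are shares of all genes in the same fit and direction. With siSRSF1-2 against blank 9 members rose and 4 fell (2.22% and 2.73%). The higher count became 4 with a pseudocount of 0.01 (2.29%) and 3 without a filter (0.883%). It was 0 with a mean of at least 10 reads (2.06%), 5 without a trend (2.12%) and 1 in a fit over 4 groups (0.764%). The lower count became 2 with a pseudocount of 1 (1.15%) or 0.01 (3%), without a filter (1.13%) and with voom (3.01%). It was also 2 with a mean FPKM of at least 1 (2.56%), and 0 with at least 10 reads (3.25%) or over 4 groups (1.03%). With siSRSF1-3 against blank 0 and 1 passed (0.331% and 0.929%). The lower count became 4 with a pseudocount of 1 (1.17%), 0 with 0.01 (0.268%) and 2 without a filter (0.216%) or trend (0.69%). It was 0 with a mean FPKM of at least 1 (1.3%), at least 10 reads (2%) or voom (2.34%). It was also 0 with the own read total (0.331%) and the same FPKM sum (0%). A fit over 4 groups gave 4 higher and 18 lower (7.1% and 6.71% of all genes). In OE-LINC01134 1 and 0 passed (0.257% and 0.593%). The higher count became 0 with a pseudocount of 1 (0.188%) or 0.01 (0.194%), no filter (0.0376%) or voom (0.576%). It was also 0 with a mean FPKM of at least 1 (0.311%). It was 2 with the own read total (0.285%), no trend (0.165%) or 4 groups (0.992%), and 3 with the same FPKM sum (0.473%). Between the siRNAs 0 and 1 passed (0.0342% and 0.0513%). The lower count became 0 with a pseudocount of 0.01 (0%) and with a mean FPKM of at least 1 (0.104%). It was also 0 with at least 10 reads (0%) or voom (0.308%). It was 2 without a filter (0.185%), and 24 over 4 groups, with 2 higher (7.18% and 8.39% of all genes). The cause was not tested. The filter of at least 10 reads took in 19909 genes but only 44 members, and left out every member called in the main fit. The filter of a mean FPKM of at least 1 took in 14491 genes.

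With the replicate number as a block (replicate block), 5 members rose with siSRSF1-2 (1.71% of all genes) and 0 fell with siSRSF1-3 (0%). In the same fits 0 rose in OE-LINC01134 (0.0057%) and 0 were lower between the siRNAs (0%). The labels do not say whether same-numbered libraries shared a culture or batch.

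Without the most-read member, the log2 ratio of summed FPKM turned from 0.21 to -0.19 for siSRSF1-3 and from 0.11 to -0.29 between the siRNAs, and was 0.16 in OE-LINC01134. Leaving out 1 library each, counts of higher members ranged from 2 to 24 with siSRSF1-2, 0 to 6 with siSRSF1-3, 0 to 9 in OE-LINC01134 and 0 to 9 between the siRNAs. Counts of lower members ranged from 1 to 4, 0 to 42, 0 to 4 and 0 to 48. Shares of all genes called higher in those fits ranged from 1.15% to 3.03%, 0% to 12.5%, 0.0057% to 2.91% and 0% to 16%. Shares called lower ranged from 1.89% to 3.74%, 0% to 11.4%, 0% to 5.87% and 0% to 14.5%. The ratio of summed FPKM ranged from -0.011 to 0.35, -0.03 to 0.45, 0.025 to 0.38 and -0.13 to 0.23, and the median member from 0.04 to 0.31, -1.88 to -0.72, -0.00 to 0.34 and -2.04 to -0.91.

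Some small differences turned. With siSRSF1-3, SNORD83A ranged from -0.92 to 0.48 when 1 library was left out. In OE-LINC01134 such ranges were -0.18 to 0.17 for SNORD83A, -0.21 to 0.11 for SNORD104, -0.060 to 0.31 for SNORD17 and -0.19 to 0.35 for SNORA33. With the same FPKM sum, SNORD83A was 0.073 in OE-LINC01134 and SCARNA13 -0.0037 between the siRNAs.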
